A study of Mus musculus with 9 samples.

Results

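The 9 genes described here encode adhesion proteins of the cell surface: the cadherins Cdh2, Cdh11 and Cdh13, the immunoglobulin-domain molecules Cadm1, Cadm3, Ncam1, Vcam1 and Alcam, and the neurexin-family protein Cntnap4. They were chosen by symbol, and every array probe annotated to 1 of these symbols was included, which gave 23 of 45281 probes and 9 of 19057 gene symbols. RNA came from 3 hindlimb tissues of embryonic day 16 mice of the CD-1 strain, with 3 Illumina bead arrays for each. They were the meniscus, the fibrous cartilage pad of the knee; the cruciate ligaments, which tie femur to tibia; and the articular cartilage, the hyaline layer over the bone ends. The labels name no genetic change and no treatment in any sample, and they do not say whether replicates were separate embryos, so the p-values cover the spread between these samples alone, which may be technical.

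Classical cadherins bind the same cadherin on a neighbouring cell in the presence of calcium, and their tails hold catenins that connect to actin. Immunoglobulin-domain molecules bind across cell contacts, either to themselves without calcium or to other partners such as integrins. In developing limbs Cdh2 and Ncam1 are known from the condensation of mesenchyme that comes before cartilage, and Cdh11 is the cadherin of loose mesenchyme and of the joint lining. Cntnap4, a Caspr protein, belongs to neither family and is best known from neurons.

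The ligament arrays stood apart from the other 6. Their median scanner signal was 147.4 to 209.7, against 93.4 to 101.2 on the meniscus arrays and 99.5 to 103.8 on the cartilage arrays. A detection p below 0.01 was reached by 18.0% to 20.9% of probes on the ligament arrays, by 28.9% to 31.9% on the meniscus arrays and by 29.4% to 35.6% on the cartilage arrays. The median SD of a gene within a tissue was 0.25 in meniscus, 0.50 in ligament and 0.26 in cartilage on the log2 scale. The ligament arrays were also deposited as a separate set, so set and tissue cannot be told apart in any comparison with ligament. The median named gene stood 0.27 higher in meniscus than in ligament, and its ligament minus cartilage difference was -0.23. Fitted gene differences with ligament are therefore also given relative to that median. Between meniscus and cartilage this median was 0.03. The shift with ligament depends on the detection filter described below. Without the filter the medians with ligament were -0.02 and 0.03, and among genes detected on all 9 arrays 0.08 and -0.02. Values given relative to the median depend on the filter as well.

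The tissue labels were set against marker genes. The 9 cartilage markers, among them Col2a1 and Acan, had a mean log2 level of 7.70 to 8.45 on meniscus arrays, 7.46 to 8.61 on ligament arrays and 10.10 to 10.65 on cartilage arrays. The 5 testable tendon and ligament markers, among them Mkx and Col1a1, stood at 7.91 to 8.51 on meniscus arrays, 9.12 to 9.22 on ligament arrays and 7.40 to 7.88 on cartilage arrays. Of the defining ligament genes, the transcription factor Scx did not pass the detection filter but had a detected probe in ligament, and Tnmd was detected in none of the 3 tissues.

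Cntnap4 was higher in meniscus than in ligament, where it was not above background, and its meniscus arrays were also above its cartilage arrays, a difference that missed the adjusted threshold. Cadm1 was brighter in ligament than in meniscus, and Vcam1 was brighter in ligament than in cartilage. Cdh11 and Alcam were detected in all 3 tissues without a called difference between any of them, and Ncam1 and Cdh13 were faint. Cadm3 was detected on 3 arrays and Cdh2 on none. In meniscus 8 of the 9 genes had a detected probe on at least 1 array, in ligament 6 and in cartilage 8. Of the 23 probes, 15 were detected on at least 1 meniscus array, 8 on at least 1 ligament array and 16 on at least 1 cartilage array.

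A gene was tested if some tissue had a probe of it detected on all 3 of its arrays, which held for 11 of the 23 probes and 7 of the 9 genes. This filter favours genes that are high in 1 tissue, so the counts below describe the 7 genes and support nothing beyond them. Values are background-corrected, quantile-normalized log2 signals of the gene's brightest kept probe. They compare tissues for 1 probe and cannot be compared between genes.

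**Figure D1:**
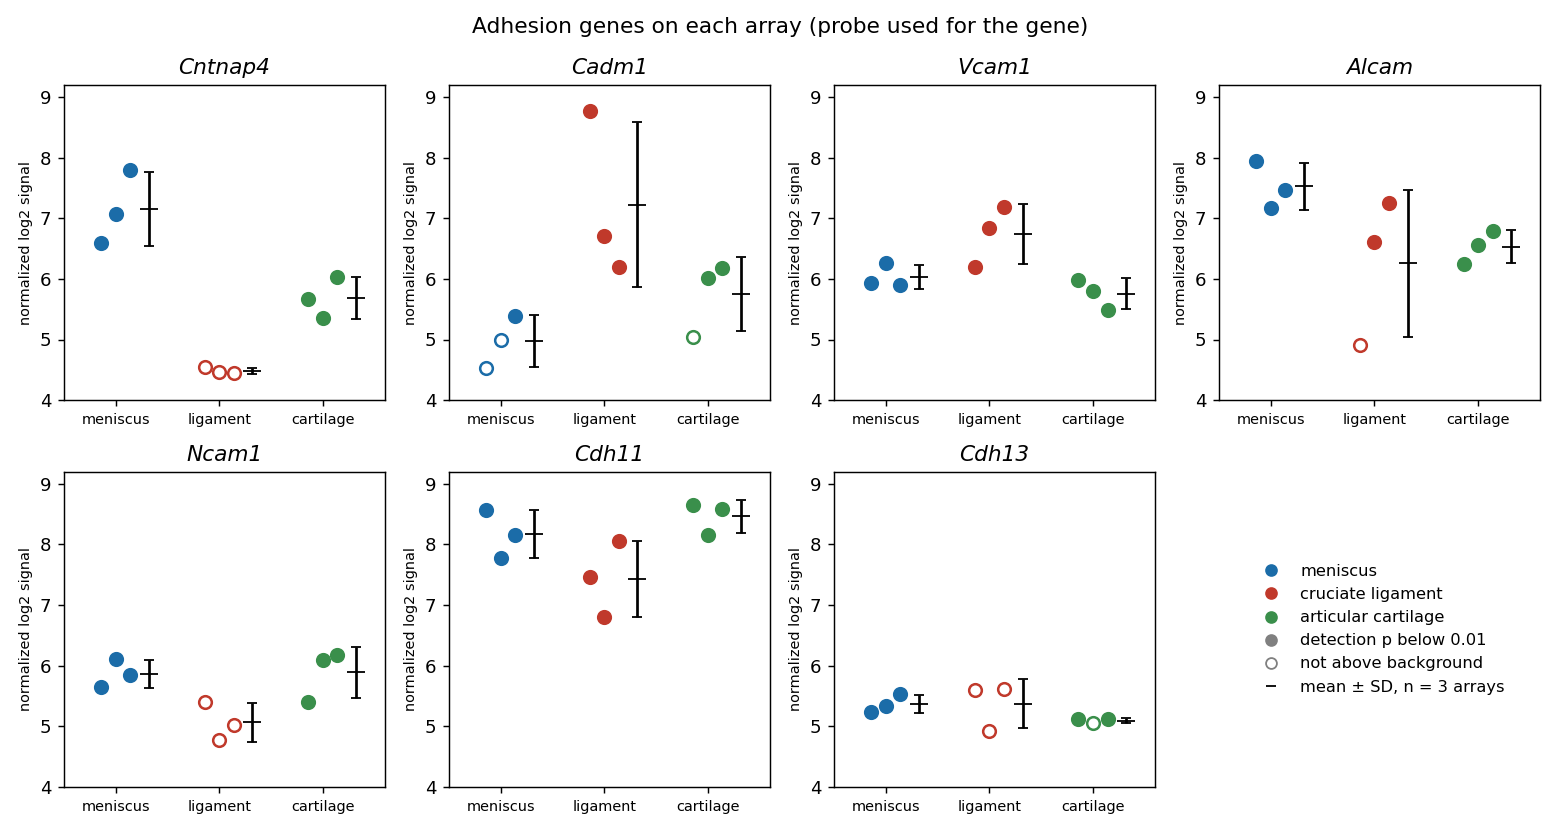
Normalized log2 signal of the 7 tested genes on each array of meniscus, cruciate ligament and articular cartilage (1 point per array); filled points were detected, open points were not, and bars give the mean and SD of 3 arrays. Cntnap4 lies between 6.59 and 7.79 in meniscus, above every ligament and cartilage array, while Cadm1 spreads from 6.19 to 8.76 in ligament.

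Among the cadherins, Cdh11, a type II cadherin of mesenchymal and synovial cells, was detected on all 9 arrays. Its log2 signals were 8.57, 7.77 and 8.16 in meniscus, 7.47, 6.80 and 8.05 in ligament and 8.65, 8.16 and 8.58 in cartilage. Every ligament array lay below every cartilage array, while meniscus overlapped with both. Ligament minus cartilage was -1.03 ± 0.35 (log2, SE; n = 3 arrays per tissue), or -0.79 relative to the median gene, and missed the threshold (limma, Benjamini-Hochberg adjusted p = 0.0736). It passed without ligament replicate 3 (-1.33, limma adjusted p = 0.0257) and with the replicate number as a block (limma adjusted p = 0.048). Meniscus minus cartilage was -0.30 ± 0.35, with a 95% interval from -1.08 to 0.48 (limma adjusted p = 0.835).

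The other pair of Cdh11 probes gave a different order of the ligament arrays. One of them, ILMN_2737073, read 6.69, 6.80 and 7.23 in meniscus, 4.59, 7.84 and 6.34 in ligament and 6.73, 7.34 and 7.49 in cartilage. The second, ILMN_1240529, read 6.66, 6.70 and 6.91 in meniscus, 4.84, 8.29 and 6.34 in ligament and 6.56, 7.13 and 7.56 in cartilage. On both, ligament replicate 1 was not detected and ligament replicate 2 was the brightest array of all 9, whereas on the probe used it was the dimmest. These 2 probes followed each other over the 9 arrays (Pearson r = 0.97), and their r with the probe used was 0.08 and -0.10.

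Cdh13, a cadherin held in the membrane by a lipid anchor and without a cytoplasmic tail, was faint. It read 5.23, 5.34 and 5.53 in meniscus, 5.59, 4.91 and 5.62 in ligament and 5.12, 5.05 and 5.11 in cartilage. All meniscus arrays were above all cartilage arrays by a small margin, and the probe was not detected on any ligament array. The probe ILMN_2659503 ran the other way: it averaged 4.77 in meniscus, with 0 arrays detected, and 5.16 in cartilage, with 2 arrays detected, and was detected on ligament replicate 2. Meniscus minus cartilage of the probe used was 0.27 ± 0.24 (limma adjusted p = 0.765), with a 95% interval from -0.26 to 0.81. Both probes of Cdh2, N-cadherin, were below the detection limit on all 9 arrays, with readings of 4.42 to 4.66 in meniscus, 4.35 to 4.74 in ligament and 4.63 to 4.87 in cartilage, so no level of Cdh2 can be given for these tissues.

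Of the immunoglobulin-domain molecules, Cadm1 differed between meniscus and ligament. This nectin-like protein, also known as SynCAM, binds itself and other nectin-like proteins and is found in epithelia and at synapses. It read 4.53, 4.997 and 5.39 in meniscus, 8.76, 6.72 and 6.19 in ligament and 5.04, 6.02 and 6.18 in cartilage. All ligament arrays were above all arrays of both other tissues, by a narrow margin for ligament replicate 3, and meniscus and cartilage overlapped. The probe was detected on 1 meniscus array, 3 ligament arrays and 2 cartilage arrays.

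Cadm1 averaged 4.97 ± 0.43 in meniscus and 7.22 ± 1.36 in ligament (SD, n = 3 each), a difference of -2.25 ± 0.61 (SE), or -2.52 relative to the median gene. It was called lower in meniscus (limma adjusted p = 0.0429), and no fold is given because 2 of 3 meniscus arrays were below detection. The call was kept under 6 of 18 alternative settings, with adjusted p from 0.0202 to 0.134. It was lost without meniscus replicates 1, 2 or 3 (limma adjusted p = 0.134, 0.115 and 0.0846), without cartilage replicates 1, 2 or 3 (0.0505, 0.0688 and 0.0639) and with the replicate number as a block. The call was also lost without the detection filter (limma adjusted p = 0.0976), which Cadm1 passed through its ligament arrays alone. An offset of 50 (0.0614) and no background correction (0.0709) lost it too. So did a fit of both tissues only (0.0931) and array weights (0.0594). Without ligament replicate 1, the brightest array, the difference was -1.48 (limma adjusted p = 0.0387). Ligament minus cartilage was 1.48 ± 0.61, or 1.71 relative to the median gene, not called (limma adjusted p = 0.13), but called without ligament replicate 3 (1.99, limma adjusted p = 0.0488). Meniscus minus cartilage was -0.77 ± 0.61, not called (limma adjusted p = 0.731).

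Its relative Cadm3, a nectin-like protein known mainly from neural tissue, did not pass the filter. The brighter probe, ILMN_1254663, was detected on 2 meniscus arrays, 0 ligament arrays and 1 cartilage array, with readings of 4.91, 5.73 and 5.40 in meniscus, 4.42, 4.53 and 4.69 in ligament and 4.98, 4.82 and 5.502 in cartilage. The meniscus and cartilage ranges overlapped, and the second probe was detected on 0 arrays.

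Vcam1, a receptor for integrins that is induced on activated endothelium and is also made by mesenchymal cells, was detected on all 9 arrays by 1 of its 4 probes. It read 5.94, 6.26 and 5.90 in meniscus, 6.20, 6.85 and 7.18 in ligament and 5.98, 5.80 and 5.49 in cartilage. The ligament arrays were all above the cartilage arrays and overlapped with meniscus at 1 array. Vcam1 averaged 6.74 ± 0.50 in ligament and 5.76 ± 0.25 in cartilage (SD, n = 3 each), a rise of 0.98 ± 0.28 in ligament, 1.98-fold, or 1.22 relative to the median gene (limma adjusted p = 0.0448). The probe ILMN_1232768, detected on cartilage replicate 1 alone, ran the other way, with 4.36 in ligament and 4.94 in cartilage. ILMN_1241993, detected on 0 arrays, averaged 4.93 in ligament and 4.56 in cartilage.

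The Vcam1 call was kept under 5 of 19 alternative settings, with adjusted p from 0.0122 to 0.142. It was kept without ligament replicate 1 (limma adjusted p = 0.0122) and lost without each of the other 8 arrays, where the difference was 0.76 to 1.10 and the adjusted p 0.0641 to 0.142. With the replicate number as a block it was lost as well. The same held with an offset of 50, without background correction and without the detection filter. It held too in a fit of both tissues only and with array weights. Meniscus minus ligament was -0.71 ± 0.28, or -0.98 relative to the median gene, not called (limma adjusted p = 0.128), but called without ligament replicate 1 (-0.99, limma adjusted p = 0.03). Endothelial markers had a mean level of 5.33 to 6.57 on ligament arrays and 5.36 to 5.39 on cartilage arrays over 10 testable genes of 17, with 1 gene called higher in ligament and a median difference of 0.65. Emcn averaged 7.02 in ligament and 5.20 in cartilage, Esam 6.60 and 4.96, Tek 6.16 and 4.90, and Pecam1 5.37 and 4.64. Erg, at 7.72 in ligament and 8.27 in cartilage, and Ramp2, at 6.11 and 6.66, ran the other way. Tie1, Vwf, Eng and Sox18 were detected in no tissue. Macrophage markers stood at 5.40 to 7.98 on ligament arrays and 5.22 to 5.58 on cartilage arrays over 8 testable genes of 19, with 1 gene called higher in ligament and a median difference of 1.12. On meniscus arrays endothelial markers stood at 5.88 to 6.66 and macrophage markers at 6.58 to 8.14, while Vcam1 averaged 6.03 there. The part of either cell type in the Vcam1 difference was not tested, and in whole-tissue RNA fewer cells of a type and less RNA per cell cannot be told apart.

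Alcam, which binds itself and the lymphocyte receptor CD6, had 1 probe. It read 7.94, 7.17 and 7.47 in meniscus, 4.91, 6.61 and 7.25 in ligament and 6.25, 6.56 and 6.79 in cartilage. Every meniscus array was above every cartilage array, whereas the ligament arrays ran from undetected, in replicate 1, to the level of meniscus. Meniscus minus cartilage was 0.99 ± 0.52, 1.99-fold, with a 95% interval from -0.18 to 2.17 (limma adjusted p = 0.549). Meniscus minus ligament was 1.27 ± 0.52, or 1.003 relative to the median gene (limma adjusted p = 0.14), and it was called without ligament replicate 3 (1.76, limma adjusted p = 0.0395).

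Ncam1, the neural cell adhesion molecule, was faint, and its meniscus and cartilage arrays overlapped. It read 5.65, 6.11 and 5.84 in meniscus, 5.40, 4.77 and 5.01 in ligament and 5.40, 6.09 and 6.17 in cartilage. Another Ncam1 probe, ILMN_3102825, was detected on 2 meniscus arrays, ligament replicate 2 and 2 cartilage arrays. It ran the other way for ligament, averaging 5.22 in meniscus, 5.55 in ligament and 5.12 in cartilage. The probe used was detected on 0 ligament arrays. Its means, 5.87 in meniscus and 5.89 in cartilage, lie among the detection limits of the ligament arrays, 5.76 to 6.06. No fold or bound against ligament is therefore given. Meniscus minus cartilage was -0.02 ± 0.28, with a 95% interval from -0.65 to 0.61 (limma adjusted p = 0.992). Meniscus minus ligament was 0.80 ± 0.28, or 0.54 relative to the median gene (limma adjusted p = 0.0905), and ligament minus cartilage was -0.82 ± 0.28, or -0.59 relative to it (limma adjusted p = 0.0754). The ligament-cartilage difference passed without cartilage replicate 1 (-1.07, limma adjusted p = 0.0484) or ligament replicate 1 (-0.99, limma adjusted p = 0.0471).

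Cntnap4 read 6.59, 7.07 and 7.79 in meniscus, 4.54, 4.47 and 4.44 in ligament and 5.67, 5.35 and 6.03 in cartilage. The 3 tissues did not overlap, with meniscus highest and every ligament array below detection. Cntnap4 averaged 7.15 ± 0.60 in meniscus and 4.48 ± 0.05 in ligament (SD, n = 3 each), a difference of 2.67 ± 0.32 (SE), or 2.40 relative to the median gene (limma adjusted p = 0.00234). As ligament was not above background, the level in meniscus was at least 2.39-fold higher, or at least 1.99-fold relative to the median gene, against the lowest signals detected on the ligament arrays. The call was kept under all 18 alternative settings in which the gene was tested, with adjusted p from 0.00279 to 0.0216. The difference was 1.66 with a background offset of 50 and 1.15 without background correction.

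In cartilage Cntnap4 averaged 5.69 ± 0.34. Meniscus minus cartilage was 1.47 ± 0.32, 2.76-fold, with a 95% interval from 0.76 to 2.18 and no overlap between the arrays, and it missed the threshold (limma adjusted p = 0.0808). It passed with array weights (limma adjusted p = 0.0217) and in the authors' processed values (0.86, limma adjusted p = 0.0357). Ligament minus cartilage was -1.20 ± 0.32, -0.97 relative to the median gene, and was called (limma adjusted p = 0.0331). No fold is given for it, because the cartilage mean lies below 5.76, the lowest of the detection limits of the ligament arrays. That call was kept under 6 of 18 alternatives and was lost without meniscus replicate 2, any 1 cartilage array, or ligament replicates 2 or 3 (limma adjusted p from 0.0532 to 0.113).

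All 3 Cntnap4 probes were brighter in meniscus than in ligament. The probe ILMN_2932508 read 6.76, 7.25 and 7.78 in meniscus, 4.34, 4.35 and 4.37 in ligament and 4.93, 5.55 and 6.29 in cartilage, and followed the probe used with r = 0.98 over the 9 arrays. The dimmer ILMN_2736242 read 5.36, 5.61 and 5.24 in meniscus, 4.99, 4.63 and 4.47 in ligament and 4.47, 4.66 and 5.04 in cartilage. On that probe meniscus stayed above both other tissues, while ligament and cartilage overlapped. With every probe fitted on its own, meniscus minus ligament was called for ILMN_2932508 (2.91 ± 0.37, limma adjusted p = 0.00343) but not for ILMN_2736242 (0.71 ± 0.24, limma adjusted p = 0.0899). Ligament minus cartilage was called for neither, at -1.23 (limma adjusted p = 0.0511) and -0.03 (limma adjusted p = 0.959). The ligament-cartilage call was also lost with the mean of kept probes, cyclic loess, an offset of 50 or array weights. No background correction and no detection filter lost it too. None of the 3 probes was detected on a ligament array.

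Markers of neurons were measured beside Cntnap4. Of 14 neuronal genes on the array, 5 had a detected probe in meniscus, 4 in ligament and 5 in cartilage, and the mean of the 4 testable ones was 6.10 to 6.73 on meniscus arrays, 5.25 to 6.20 on ligament arrays and 5.20 to 5.85 on cartilage arrays. Gap43, a growth-cone protein, averaged 7.06 in meniscus, 5.77 in ligament and 5.25 in cartilage. The neurofilament gene Nefm averaged 6.04, 5.23 and 4.81 in the same order, and Dcx, of migrating neurons, 6.84, 6.38 and 6.38. Elavl3, the remaining testable gene, averaged 5.58, 5.30 and 5.66 and so was highest in cartilage. The defining genes Tubb3, Snap25, Prph, Elavl4, Syt1, Isl1 and Pou4f1 were detected in no tissue. Of the 10 Schwann cell markers on the array, 5 had a detected probe in meniscus, 0 in ligament and 5 in cartilage, and none could be tested. The part of nerve in the Cntnap4 difference was not tested.

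**Figure D2:**
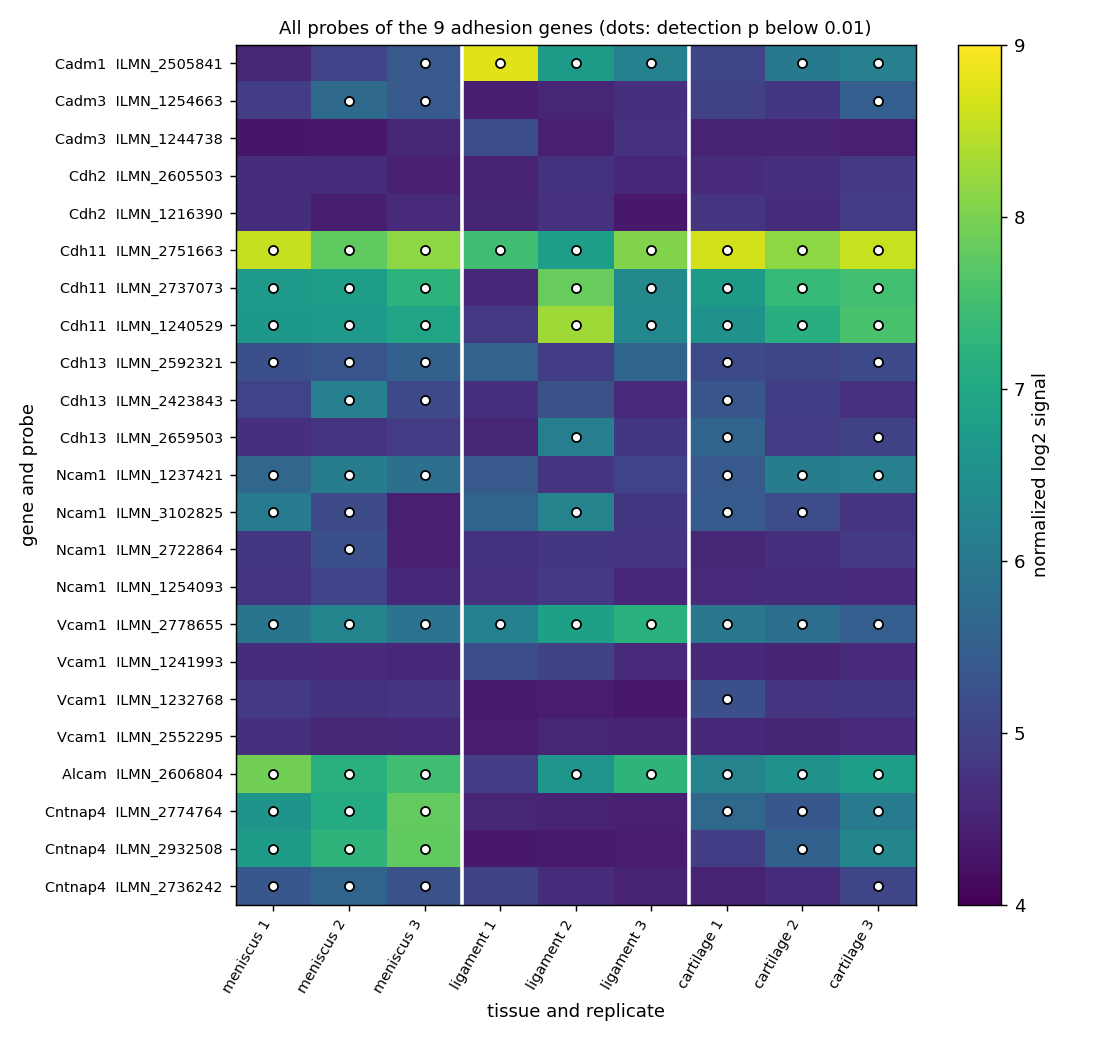
Heat map of the normalized log2 signal of every probe of the 9 genes (rows) on the 9 arrays (columns), with a dot where the detection p was below 0.01. The 3 Cntnap4 probes are all brightest in meniscus, the Cdh11 probes disagree on the ligament arrays, and both Cdh2 probes stay undetected on all 9 arrays.

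Meniscus was first set against articular cartilage, the comparison within 1 deposited set. Limma called 0 of the 7 tested genes at an adjusted p below 0.05, where 0.76% of 7234 named genes were called (0.415% higher and 0.346% lower), and 1 gene, Cntnap4, had an unadjusted p below 0.05, against 11.4% of named genes. Array weights and the authors' values each called 1, Cntnap4. Cdh13, Alcam and Cntnap4 were higher on every meniscus array than on any cartilage array, 3 of 7, where 14.7% of named genes were and 26% did not overlap in either direction. Cdh13 passed the filter through its meniscus arrays alone, and its probe ILMN_2659503 ran the other way. The median difference of the 7 genes was 0.27, against 0.03 over all named genes.

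Between meniscus and cruciate ligament, Cntnap4 was called higher and Cadm1 lower in meniscus, 2 of 7, where 11.9% of named genes were called in either direction, 9.32% higher and 2.63% lower. Cntnap4 and Ncam1 did not overlap with ligament on the high side (23.7% of named genes) and Cadm1 on the low side (7.91%), with 31.6% in either direction. An unadjusted p below 0.05 was reached by 5 of the 7 genes and by 29.3% of named genes. The median of the 7 differences was 0.73 and that of all named genes 0.27.

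Between ligament and cartilage, Vcam1 was called higher and Cntnap4 lower in ligament, 2 of 7, where 15.2% of named genes were called, 3.84% higher and 11.3% lower. Cadm1 and Vcam1 were higher on every ligament array than on any cartilage array (9.44% of named genes), and Cdh11 and Cntnap4 lower (24.1%), with 33.6% in either direction. An unadjusted p below 0.05 was reached by 5 of the 7 genes and by 31.6% of named genes. The median of the 7 differences was -0.27, close to -0.23 over all named genes. The F test over the 3 tissues called Cntnap4 alone (limma adjusted p = 0.00393), where 14.7% of named genes were called, and Cadm1 (limma adjusted p = 0.0713), Vcam1 (0.081) and Ncam1 (0.1) came next.

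**Figure D3:**
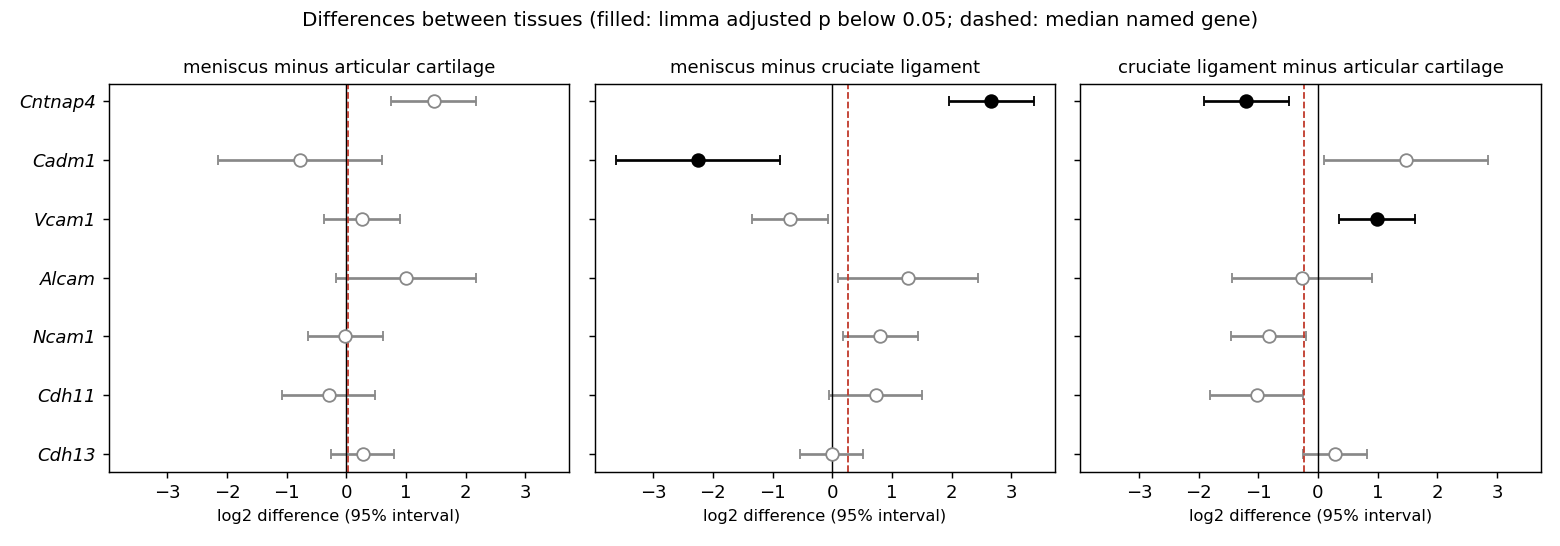
Log2 differences of the 7 tested genes for meniscus minus cartilage, meniscus minus ligament and ligament minus cartilage, with bars for 95% intervals, each gene a row, and the median named gene as a dashed line; filled points passed the adjusted threshold. Cntnap4 at 2.67 and Cadm1 at -2.25 are the called differences between meniscus and ligament.

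The remaining genes of the adhesion system were read from 6 lists of 174 genes in all, of which 163 were on the array and 55 could be tested. Without the 9 genes above they held 165, 154 and 48. Between meniscus and cartilage limma called 0 of the 48 (0.76% of all named genes were called), and 15 of the 48 had an unadjusted p below 0.05, where 11.4% of all named genes did. Between meniscus and ligament 2 of the 48 were called higher and 3 lower (10.4%), and between ligament and cartilage 5 higher and 1 lower (12.5%), beside 11.9% and 15.2% of all named genes.

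Mcam, an immunoglobulin-domain molecule of endothelium and pericytes, averaged 8.24 in meniscus, 9.24 in ligament and 7.68 in cartilage. It fell by 1.00 ± 0.23 in meniscus relative to ligament (-1.26 relative to the median gene, limma adjusted p = 0.0226) and rose by 1.56 ± 0.23 in ligament relative to cartilage (1.79 relative to the median gene, limma adjusted p = 0.00379). The second call was kept under all 19 alternatives and the first under 14, being lost without any 1 meniscus array. Markers of smooth muscle and pericytes stood at 7.64 to 7.90 on meniscus arrays, 8.03 to 8.18 on ligament arrays and 6.82 to 7.17 on cartilage arrays over 4 testable genes of 10. In the same order Rgs5 averaged 8.85, 9.28 and 6.45, Myl9 7.46, 6.88 and 4.88, and Acta2 8.14, 8.19 and 7.99. Cspg4 averaged 6.60, 8.01 and 8.48 and so was highest in cartilage. The part of these cells in the Mcam difference was not tested.

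Among the protocadherins, Pcdh17 fell by 1.95 ± 0.47 in meniscus relative to ligament (-2.21 relative to the median gene, limma adjusted p = 0.0295) and rose by 2.604 ± 0.47 in ligament relative to cartilage (2.84 relative to the median gene, limma adjusted p = 0.00869). The second call was kept under all 19 alternatives and the first under 10, being lost without meniscus replicates 1 or 3, cartilage replicate 2 or ligament replicates 2 or 3. Pcdh7 was at least 1.27-fold higher in meniscus than in ligament, where it was not above background (limma adjusted p = 0.0456). This bound is not relative to the median named gene, which itself stood 0.27 higher in meniscus on the log2 scale. The Pcdh7 call was kept under 4 of 19 alternatives and, of the 9 that leave out 1 array, only without cartilage replicate 1 or ligament replicate 1. The nectin-family receptor gene Pvr was also called higher in meniscus than in ligament (0.96 ± 0.23, or 0.70 relative to the median gene, limma adjusted p = 0.0292). Its ligament signal was below background, and its meniscus mean of 5.65 lies below 5.76, the lowest of the detection limits of the ligament arrays. No fold or bound is therefore given. The Pvr call was kept under 6 of 19 alternatives and lost without any 1 meniscus array, cartilage replicate 2 or ligament replicate 2. Sdk2, an immunoglobulin-domain molecule of synapses in the retina, averaged 5.13 ± 0.93 in ligament and 7.29 ± 0.16 in cartilage (SD, n = 3 each) and was called lower in ligament (limma adjusted p = 0.0124). No size is given, because only 1 of 3 ligament arrays detected it. Its call was kept under 17 of 19 alternatives and lost without cartilage replicate 2.

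Of the partners and processing enzymes, Fgfr1, a growth factor receptor that binds Ncam1 and Cdh2, fell by 1.05 ± 0.24 in meniscus relative to ligament (-1.31 relative to the median gene, limma adjusted p = 0.025). The call was kept under 13 of 19 alternatives and lost without any 1 meniscus array or ligament replicate 2. Cd47, a surface partner of integrins, rose by 1.11 ± 0.24 in ligament relative to cartilage (1.34 relative to the median gene, limma adjusted p = 0.0183), a call kept under 17 of 19 alternatives and without any 1 array. Ncstn, a subunit of the gamma-secretase that cuts cadherin stubs, rose by 0.94 ± 0.24 in the same comparison (1.17 relative to the median gene, limma adjusted p = 0.0311), and the membrane protease gene Mmp14 by 0.74 ± 0.19 (0.98 relative to the median gene, limma adjusted p = 0.0291). The Ncstn call was kept under 11 of 19 alternatives and lost without meniscus replicate 3, cartilage replicates 2 or 3 or ligament replicate 1. The Mmp14 call was kept under 12 and lost without meniscus replicate 3 or any 1 cartilage array. Of the 32 genes of the cadherin list on the array only 3 could be tested, Cdh11 and Cdh13 among them, and 0 were called in the 3 comparisons. The third was the endothelial cadherin Cdh5, which averaged 5.86 in meniscus, 5.07 in ligament and 4.82 in cartilage and had a detected probe in meniscus alone. Of the 8 testable catenins and junction linkers, 0 were called in meniscus against cartilage, meniscus against ligament or ligament against cartilage. Of all named genes 0.76%, 11.9% and 15.2% were called in these comparisons. In the same order 1, 0 and 1 of the 8 had an unadjusted p below 0.05, where 11.4%, 29.3% and 31.6% of all named genes did.

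**Figure D4:**
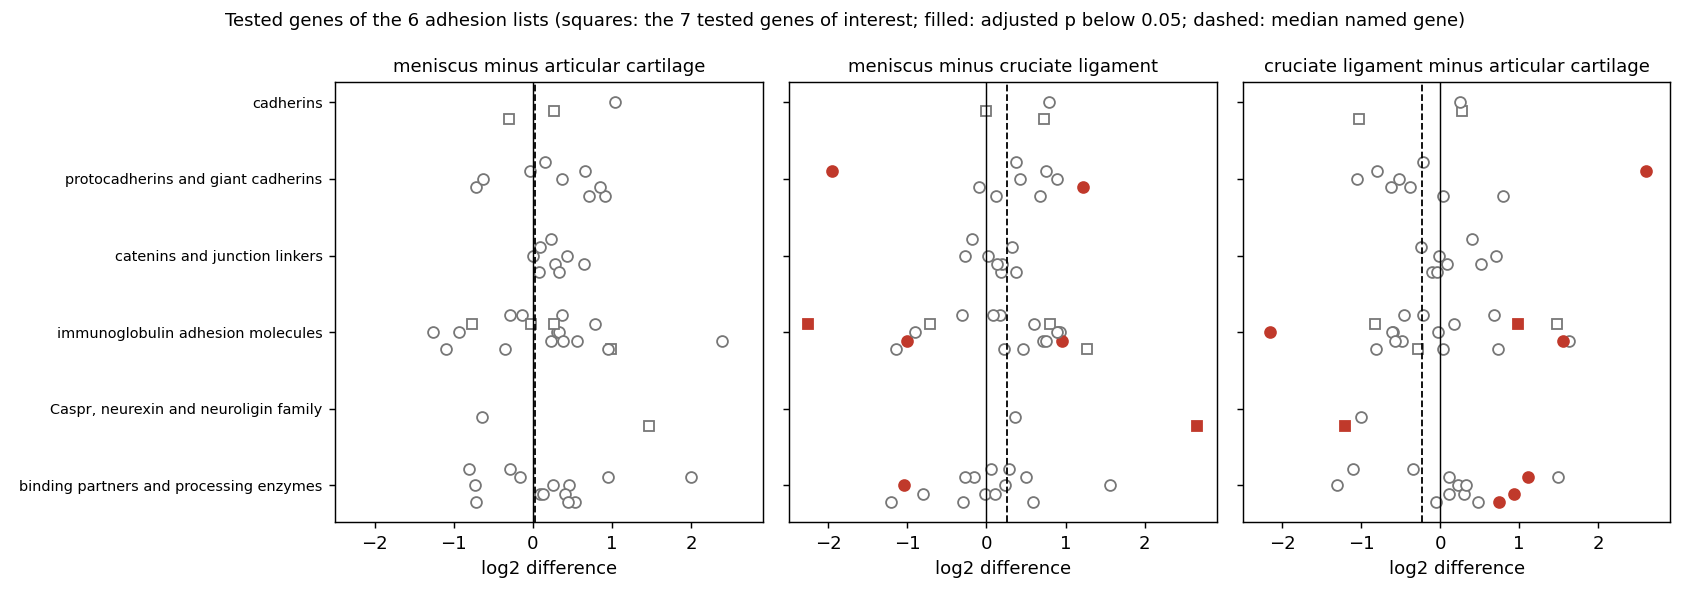
Log2 differences of the 55 tested genes of the 6 adhesion lists in each of the 3 comparisons; squares are the 7 tested genes described first, filled marks passed the adjusted threshold and the dashed line is the median named gene. No filled mark stands in meniscus minus cartilage, against 7 in meniscus minus ligament and 8 in ligament minus cartilage.

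The 2 genes with the pattern most like each tested gene were taken from 7233 named genes by Pearson's r over the 9 arrays. For Cntnap4 these were Rngtt (r = 0.97) and Zeb2 (r = 0.97), for Cadm1 Gnl2 (0.95) and Prrc2c (0.94), and for Vcam1 Ndfip1 (0.94) and Ythdf1 (0.94). Alcam lay nearest to 1700025G04Rik (0.97) and Stau2 (0.93), and Ncam1 to Mrps18b (0.98) and Uqcc1 (0.96). Cdh11 lay nearest to Dpysl5 (0.96) and Cnot2 (0.96), and Cdh13 to Lamtor4 (0.93) and Bbs7 (0.93). The 9 arrays share tissues and deposited sets, and each pair is the best of many, so these values describe likeness on these arrays.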

How the data were processed

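RNA was amplified and labelled with NuGEN kits and hybridised to Illumina arrays, per the labels' protocols. The deposited scanner tables hold a linear signal intensity and a detection p-value for each probe and array. The submitters' processing notes list GenomeStudio without a version. The authors' processed intensity values were deposited too, with the meniscus and cartilage arrays and the ligament arrays normalized separately, and served as an alternative between meniscus and cartilage.

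The 45281 scanner rows were matched to named probes by their ranks over the 9 arrays (100% kept their partner when any 1 array was left out). Symbols came from the platform annotation: 34885 probes had 1 symbol, 18 several and 10378 none.

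Signals were corrected and normalized with limma's neqc (R 4.3.3, limma 3.58.1, offset 16, negative controls inferred from detection p-values). Probes were kept (12538) where some tissue had a detection p below 0.01 on all 3 of its arrays, and the brightest was used for each gene, which gave 9166 features, 7234 of them named. Group means were fitted with lmFit and eBayes over all 9 arrays, and the Benjamini-Hochberg adjustment ran over all features of a comparison. The precision is limited by the number of arrays. A probe below detection on every array of a tissue has only a bound there: the bright tissue's mean against the dim tissue's mean of, per array, the higher of the probe's own value and the lowest signal among detected probes. The fit was tested on simulated data in which a gene had the same spread on all 9 arrays, whereas the spread in these data was wider in ligament. Named genes are the 9 members, up to 4 called genes per list and comparison, the 2 most alike genes of each member, and defining markers. Cdh5 was named because so few cadherins could be tested, after its values were seen. The members, the 6 adhesion lists and the 12 marker lists were chosen with earlier results of these data known. Alternatives changed the background correction, normalization, filter, probe rule, arrays fitted and weights, added the replicate number as a block, or left out 1 array.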

Additional observations from a re-analysis of the deposited data

How the results depend on the processing

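Of 396 values of single genes under alternatives, 341 kept their direction and their side of the threshold, 38 lost a call, 9 gained one and 8 changed sign. All sign changes were of differences that were not called, when 1 array was left out: Ncam1 in meniscus minus cartilage ranged from -0.26 to 0.12, Cdh13 in meniscus minus ligament from -0.24 to 0.11, and Alcam in ligament minus cartilage from -0.77 to 0.40. The cause was not tested.

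In the main fit 7 of the 9 genes were tested. Between meniscus and cartilage, 0 of the 9 genes were called, and 1 with array weights or in the authors' values. The adhesion list count was 0, against 1 without background correction, 1 with cyclic loess and 3 in a fit of both tissues only. It was 3 with the 6 arrays normalized alone, 7 with array weights and 6 in the authors' values. Leaving out 1 array gave 0 to 2. Calls among all named genes moved too, from 30 higher and 25 lower of 7234 to 196 and 158 with array weights. In the authors' values they were 179 and 153 of 7209. A fit of both tissues only called 145 and 113, and the 6 arrays normalized alone 143 and 115. Without background correction they were 60 and 56, with cyclic loess 41 and 32. Leaving out 1 array gave 0 and 0 to 71 and 58. Between meniscus and ligament, 2 of the 9 genes were called. This count was 1 with an offset of 50, without background correction, without the detection filter, in a fit of both tissues only or with array weights, 0 among genes detected on all 9 arrays, and 1 to 3 without 1 array. The list count was 7, against 1 in a fit of both tissues only, 1 with array weights and 1 to 11 without 1 array. Of the 7234 named genes 674 were called higher and 190 lower. These counts were 282 and 81 in a fit of both tissues only and 286 and 80 with array weights. They ran from 215 and 62 without meniscus replicate 2 to 900 and 244 without ligament replicate 1. With an offset of 50 they were 605 and 199, and without background correction 654 and 214. Without the filter 555 and 224 of 19057 were called. Between ligament and cartilage, 2 of the 9 genes were called, against 0 with an offset of 50, without background correction, without the filter or with array weights, 1 with cyclic loess, among genes detected on all 9 arrays, with the mean of kept probes or in a fit of both tissues only, and 0 to 3 without 1 array. The list count was 8, against 4 in a fit of both tissues only, 3 with array weights and 3 to 14 without 1 array. The F test called 1 of the 9 genes, against 2 with cyclic loess, 0 among genes detected on all 9 arrays, where Cntnap4 was not tested, and 1 to 3 without 1 array.

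No clear pairing of the samples by replicate number was seen, though 3 arrays per tissue cannot exclude it. The deviations of same-numbered arrays correlated at 0.02 to 0.12 between meniscus and cartilage. Between ligament and either other tissue they correlated at -0.04 to -0.002. An array was most like its own number in 4 of 18 checks. With the replicate block, 0 of the 9 genes were called between meniscus and cartilage. Between meniscus and ligament 1 was called, and Cadm1 lost its call. Between ligament and cartilage 2 were called, where Vcam1 lost its call and Cdh11 gained a call. The block called 4 list genes between meniscus and ligament. Of the 7234 named genes it called 3 higher and 10 lower between meniscus and cartilage. It called 455 and 127 between meniscus and ligament, and 207 and 614 between ligament and cartilage.

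Cyclic loess brought the median named gene to 0.06 in meniscus minus ligament and to -0.04 in ligament minus cartilage. It gave 341 named genes higher and 248 lower between meniscus and ligament, against 674 and 190, and 404 higher and 481 lower between ligament and cartilage, against 278 and 820. Signal over background is the limit for Cdh2, Cadm3, Cdh13 and, in ligament, Ncam1 and Cntnap4.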
